A study of Mus musculus with 8 samples.

Results

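The thalamus-enriched genes described here are 10 genes that are known for strong expression in mouse thalamic neurons, read on arrays of striatal tissue as a gauge of thalamic RNA in each dissection: Slitrk6, Plcb4, Adarb1, Ptpn3, Tnnt1, Tcf7l2, Lef1, Prkcd, Rora and Ramp3. They were chosen with their values on these arrays known, so those values are given as a description, without a test. The platform's annotation assigned 21 of the 35557 probe sets to exactly 1 of these symbols, 12 of them to Ptpn3 and 1 to each of the other genes. All 21 passed the filter on dim probe sets, as did 14890 genes in all, and Ptpn3 is represented by its probe set with the highest mean unless the others are named.

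RNA came from the bilateral striatum of 8 male C57BL/6 mice, 6 weeks old at the start, with 1 array per mouse and 2 mice in each of 4 groups. The acupoint mice received MPTP, a toxin that kills midbrain dopamine neurons, at 20 mg/kg every 24 h for 4 weeks, and were needled by hand at the leg and foot points GB34 (to 3 mm) and LR3 (to 1 mm) in 14 sessions 48 h apart. The non-acupoint mice received the same MPTP course and the same number of sessions at the hips (to 3 mm), the MPTP mice received the toxin without needling, and the control mice received saline. Both needled groups therefore also carried the MPTP treatment, and no group was needled without it.

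The striatum and the thalamus are neighbouring parts of the forebrain. Thalamic relay neurons send glutamatergic axons to the cortex and the striatum, while most striatal neurons are GABAergic projection cells, so the RNA of relay cell bodies is abundant in the thalamus and sparse in the striatum. The control means of the set nevertheless ran from 5.44 (Slitrk6) to 9.40 (Plcb4), against a median of 6.81 over all single-gene probe sets. Only Slitrk6 and Tnnt1 (5.96) lay below that median. The source of the signal in the controls was not tested. The transcription factor Tcf7l2 is a well known marker of the developing and adult thalamus and habenula.

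Replicate arrays differed most in the MPTP group. Over the 16342 tested probe sets, mice of the same treatment correlated at 0.989 (acupoint), 0.989 (non-acupoint), 0.950 (MPTP) and 0.995 (control). The number of probe sets that differed by at least 1 log2 unit was 72, 60, 829 and 1 in the same order of groups. Of the defining markers of the striatum, Penk was at a high level on all 8 arrays. This gene, which encodes the enkephalin precursor of striatal projection neurons, had log2 values of 13.05 and 13.35 in the acupoint mice, 13.09 and 12.74 in the non-acupoint mice, 11.32 and 13.30 in the MPTP mice, and 13.15 and 13.10 in the control mice. Its lowest value was in MPTP mouse 1, the array on which the thalamus-enriched genes were highest. Not every striatal marker was high there: Rxrg, a retinoid X receptor gene, was at 6.92 in MPTP mouse 1, near the median of 6.81 over all single-gene probe sets, against 9.53 and 9.52 in the controls.

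The thalamus-enriched genes were high in MPTP mouse 1, less so in non-acupoint mouse 2, and a little above the controls in acupoint mouse 1. Averaged over the 10 genes, the log2 value minus the mean of the 2 controls was 0.62 and -0.11 in acupoint mice 1 and 2, 0.10 and 1.49 in non-acupoint mice 1 and 2, and 2.55 and -0.51 in MPTP mice 1 and 2, against 0.02 and -0.02 in the control mice. MPTP mouse 1 was the highest array, non-acupoint mouse 2 came next and acupoint mouse 1 after it, for all 10 genes. Each treated group thus held 1 mouse with a higher and 1 with a lower level of the set, and the higher mouse was number 1 in the acupoint and MPTP groups and number 2 in the non-acupoint group. MPTP mouse 2 was the lowest array for 8 of the 10 genes. In bulk tissue, fewer cells of a type and less RNA per cell cannot be told apart.

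**Figure D1:**
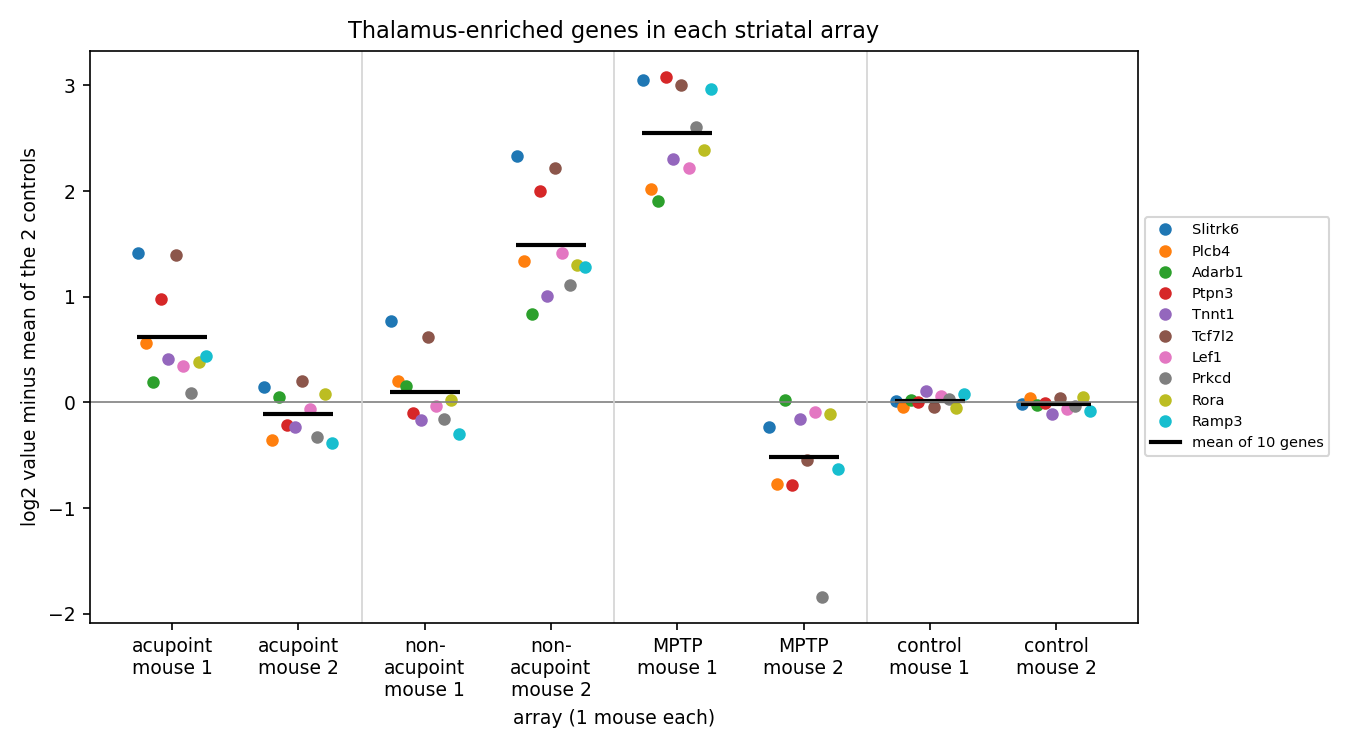
Log2 value of each of the 10 thalamus-enriched genes minus the mean of the 2 control arrays (vertical axis), for each of the 8 arrays (horizontal axis, 1 mouse each). Points are genes and black bars are the mean of the 10 genes, which lies at 2.55 in MPTP mouse 1, 1.49 in non-acupoint mouse 2, 0.62 in acupoint mouse 1 and -0.51 in MPTP mouse 2, while the control bars lie at 0.02 and -0.02.

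Of the transcription factors in the set, Tcf7l2 and Lef1 are DNA-binding partners of beta-catenin, the effector of canonical Wnt signalling, and Rora is an orphan nuclear receptor that is needed for cerebellar Purkinje cells. Tcf7l2 had log2 values of 8.95 and 7.76 in the acupoint mice, 8.17 and 9.77 in the non-acupoint mice, 10.56 and 7.01 in the MPTP mice, and 7.51 and 7.59 in the control mice. All 4 needled mice were above both controls, and the 2 MPTP mice lay on either side of them. MPTP mouse 1 was 8.03-fold above the control mean.

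Lef1 had log2 values of 7.23 and 6.81 in the acupoint mice, 6.85 and 8.29 in the non-acupoint mice, 9.10 and 6.79 in the MPTP mice, and 6.94 and 6.82 in the control mice. Here acupoint mouse 2, non-acupoint mouse 1 and MPTP mouse 2 were all within 0.1 log2 units of the control mean, whereas MPTP mouse 1 was 4.65-fold above it. Rora had log2 values of 8.77 and 8.47 in the acupoint mice, 8.41 and 9.69 in the non-acupoint mice, 10.78 and 8.28 in the MPTP mice, and 8.34 and 8.45 in the control mice. Rora kept to the same order of the 3 highest arrays, with MPTP mouse 1 at 5.23-fold the control mean.

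Since 3 of the 10 genes encode DNA-binding proteins, the promoters of the set were read for the short motifs that those proteins bind. Regulation of the set by these proteins was not tested. RefSeq windows of 250 bases ending at a start site (build GRCm38.p6) were found for all 10 genes, 16 windows in all. The motifs were the TCF/LEF core CTTTGA, its variant CTTTGT and the ROR half-site AGGTCA, each on both strands. CTTTGA was present in 2 of the 16 windows (12.5%), against 13.8% of all 32851 windows, and CTTTGT in 3 of 16 (18.8%), against 16.5% of all windows. AGGTCA was present in 0 of 16 windows, against 4607 of all 32851. The shares of both TCF/LEF forms lay near those of all windows, and a match, or none, describes only the letters of these windows. The windows below are shown because they hold the TCF/LEF matches of the factors themselves and the CTTTGA match of the gene with the largest difference between the 2 MPTP mice, with 1 AT-rich window without a match for contrast. They are the fourth Lef1 window (chr3:131156044-131156293, plus strand), the second Tcf7l2 window (chr19:55895071-55895320, plus strand), the first Prkcd window (chr14:30626209-30626458, minus strand) and the Slitrk6 window (chr14:110755150-110755399, minus strand), written 5′ to 3′ with motif matches in capitals.
Lef1: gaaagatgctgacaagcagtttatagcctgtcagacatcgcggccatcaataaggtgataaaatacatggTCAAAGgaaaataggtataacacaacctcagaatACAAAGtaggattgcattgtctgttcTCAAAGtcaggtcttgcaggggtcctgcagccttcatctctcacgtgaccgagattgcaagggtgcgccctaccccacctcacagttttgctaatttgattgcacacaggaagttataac
Tcf7l2: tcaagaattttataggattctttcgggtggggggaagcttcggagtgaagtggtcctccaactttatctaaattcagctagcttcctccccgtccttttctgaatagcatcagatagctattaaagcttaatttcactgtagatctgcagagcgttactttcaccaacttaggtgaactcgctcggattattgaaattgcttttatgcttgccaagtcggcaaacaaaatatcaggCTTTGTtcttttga
Prkcd: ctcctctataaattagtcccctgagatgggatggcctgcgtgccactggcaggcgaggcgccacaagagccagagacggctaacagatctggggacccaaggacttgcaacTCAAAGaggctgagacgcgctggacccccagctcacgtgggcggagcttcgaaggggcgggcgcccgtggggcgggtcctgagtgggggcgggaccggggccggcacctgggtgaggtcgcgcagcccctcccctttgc
Slitrk6: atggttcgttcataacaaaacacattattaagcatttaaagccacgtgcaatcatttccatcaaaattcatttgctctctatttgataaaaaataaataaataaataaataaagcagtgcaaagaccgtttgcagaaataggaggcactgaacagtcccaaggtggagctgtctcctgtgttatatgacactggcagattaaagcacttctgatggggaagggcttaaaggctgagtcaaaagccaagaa
The Lef1 window held 3 matches, starting 180, 146 and 120 bases before the start site, all on the strand opposite to the gene. The Tcf7l2 window held 1 match starting 14 bases before the start site, and the first Prkcd window held 1 starting 139 bases before it. The second Prkcd window, not shown, held a CTTTGT match starting 241 bases before its own start site. The other Lef1 windows and the first Tcf7l2 window, which end at other start sites of these genes, held no match. The G and C share was 37.2% in the Slitrk6 window and 67.6% in the Prkcd window.

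The signalling genes of the set act downstream of receptors or modify them. Plcb4 is a phospholipase C isoform activated by Gq-coupled receptors, Prkcd is a diacylglycerol-activated protein kinase C, and Ramp3 is an accessory protein that sets the ligand preference of calcitonin-family receptors. Plcb4 had log2 values of 9.96 and 9.05 in the acupoint mice, 9.60 and 10.74 in the non-acupoint mice, 11.42 and 8.63 in the MPTP mice, and 9.36 and 9.44 in the control mice. MPTP mouse 1 stood 4.04-fold above the control mean, and both non-acupoint mice were above both controls. Of the 10 genes, Plcb4 had the profile closest to the mean of the other 9, with a root mean square difference of 0.21 log2 units over the 8 arrays.

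Prkcd had log2 values of 9.46 and 9.05 in the acupoint mice, 9.22 and 10.48 in the non-acupoint mice, 11.97 and 7.53 in the MPTP mice, and 9.41 and 9.34 in the control mice. It had the widest range of the 10 genes, because MPTP mouse 2 was low as well as MPTP mouse 1 high: the 2 MPTP mice differed by 4.44 log2 units, a 21.7-fold difference. MPTP mouse 2 was at 0.28-fold of the control mean. The profile of Prkcd was the farthest from the other 9 genes, with a root mean square difference of 0.47 log2 units.

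Ramp3 had log2 values of 7.91 and 7.08 in the acupoint mice, 7.17 and 8.75 in the non-acupoint mice, 10.43 and 6.84 in the MPTP mice, and 7.55 and 7.39 in the control mice. Acupoint mouse 2, non-acupoint mouse 1 and MPTP mouse 2 were below both controls, and MPTP mouse 1 was 7.79-fold above the control mean.

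The other 4 genes have unlike functions. Slitrk6 is a transmembrane protein with leucine-rich repeats that acts at synapses and in neurite growth, and Ptpn3 is a non-receptor tyrosine phosphatase. Adarb1 is an adenosine deaminase that edits RNA, including the transcript of a glutamate receptor subunit, and Tnnt1 is the troponin T of slow skeletal muscle.

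Slitrk6 had log2 values of 6.85 and 5.59 in the acupoint mice, 6.22 and 7.78 in the non-acupoint mice, 8.49 and 5.21 in the MPTP mice, and 5.46 and 5.43 in the control mice. The 4 needled mice all exceeded both controls, and MPTP mouse 1 was 8.28-fold above the control mean. The control values lay close to the filter's floor of 5.25, where log2 differences on arrays are compressed.

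Tnnt1 had log2 values of 6.37 and 5.72 in the acupoint mice, 5.80 and 6.97 in the non-acupoint mice, 8.26 and 5.81 in the MPTP mice, and 6.07 and 5.85 in the control mice. Its lowest array was acupoint mouse 2, and MPTP mouse 1 was 4.94-fold above the control mean. Adarb1 had log2 values of 9.02 and 8.88 in the acupoint mice, 8.98 and 9.67 in the non-acupoint mice, 10.73 and 8.85 in the MPTP mice, and 8.85 and 8.81 in the control mice. It had the smallest range of the set: MPTP mouse 1 was 3.74-fold above the control mean, and MPTP mouse 2 fell between the 2 controls.

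Ptpn3 had log2 values of 9.22 and 8.03 in the acupoint mice, 8.15 and 10.25 in the non-acupoint mice, 11.33 and 7.46 in the MPTP mice, and 8.25 and 8.24 in the control mice. MPTP mouse 1 was 8.46-fold above the control mean, the largest such fold of the 10 genes. The other probe sets of the gene showed how alike its readings were within each array. Over all 12 Ptpn3 probe sets, the log2 value minus the control mean had a lowest, median and highest value of 0.56, 0.86 and 1.08 in acupoint mouse 1 and of 1.16, 1.84 and 2.05 in non-acupoint mouse 2. In MPTP mouse 1 the 3 values were 1.76, 2.96 and 3.31, and in MPTP mouse 2 they were -1.17, -0.84 and -0.56. All 12 probe sets placed MPTP mouse 1 first, then non-acupoint mouse 2, then acupoint mouse 1, and MPTP mouse 2 last. They share a gene and each array's RNA and are not replicates of a condition.

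**Figure D2:**
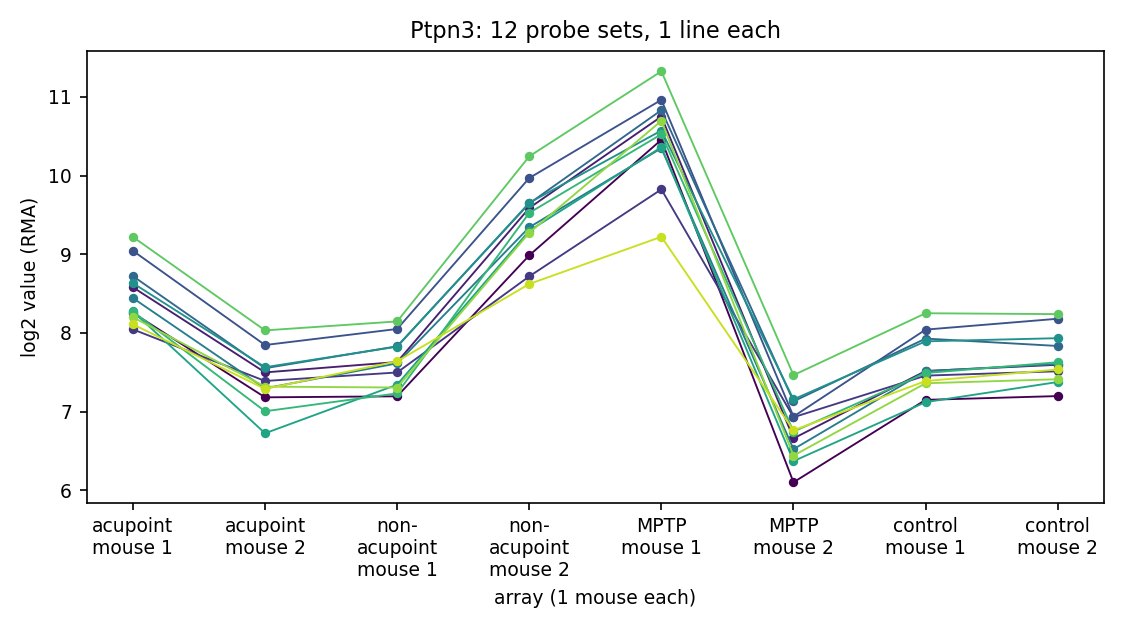
Log2 RMA value (vertical axis) of each of the 12 probe sets of Ptpn3, 1 line each, on each array (horizontal axis); lines join the arrays only to guide the eye. Every line is highest in MPTP mouse 1 and lowest in MPTP mouse 2, and the probe set with the highest mean is at 11.33 and 7.46 there, against 8.25 and 8.24 in the control mice.

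In the MPTP and non-acupoint groups, mice of the same treatment differed in the thalamus-enriched genes more than in most genes on the array. MPTP mouse 1 exceeded MPTP mouse 2 by 1.88 (Adarb1) to 4.44 (Prkcd) log2 units, with a median of 3.03. These differences ranked between 4 and 101 of the 16342 probe sets, with 9 of the 10 genes in the top 100. The genes were chosen with their values on these arrays known, so the ranks given here describe the set and test nothing. Non-acupoint mouse 2 exceeded non-acupoint mouse 1 by 0.69 (Adarb1) to 2.10 (Ptpn3) log2 units, with a median of 1.36, and 9 of the 10 genes were again in the top 100. The 2 acupoint mice differed less, by 0.14 (Adarb1) to 1.26 (Slitrk6) log2 units with a median of 0.73. The acupoint ranks ran from 30 to 4367, with 5 genes in the top 100. Between the control mice the differences ran from -0.11 to 0.21, ranks 1418 to 12150. The median absolute difference over all tested probe sets was 0.13 between the acupoint mice, 0.12 between the non-acupoint mice, 0.20 between the MPTP mice and 0.10 between the control mice.

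The size of the excess, relative to that in MPTP mouse 1, had a different value for each gene. For each gene, the excess over the control mean was taken on the linear scale (2 raised to the log2 value) and expressed as a percentage of the excess in MPTP mouse 1. In non-acupoint mouse 2 this share was 55.5% for Slitrk6, 52.1% for Tcf7l2 and 50.0% for Plcb4, against 22.9% for Prkcd and 21.0% for Ramp3. In acupoint mouse 1 it was 23.3% for Tcf7l2 and 22.8% for Slitrk6, against 5.19% for Ramp3 and 1.26% for Prkcd. Slitrk6, Tcf7l2 and Plcb4 thus had the 3 highest shares in both mice, and Prkcd and Ramp3 the 2 lowest. In non-acupoint mouse 1 the shares were 9.73% for Slitrk6 and 7.67% for Tcf7l2. All these shares use the same 2 controls and the same MPTP mouse 1, and no error can be given for them. Whether the genes scaled by a common factor was not tested.

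**Figure D3:**
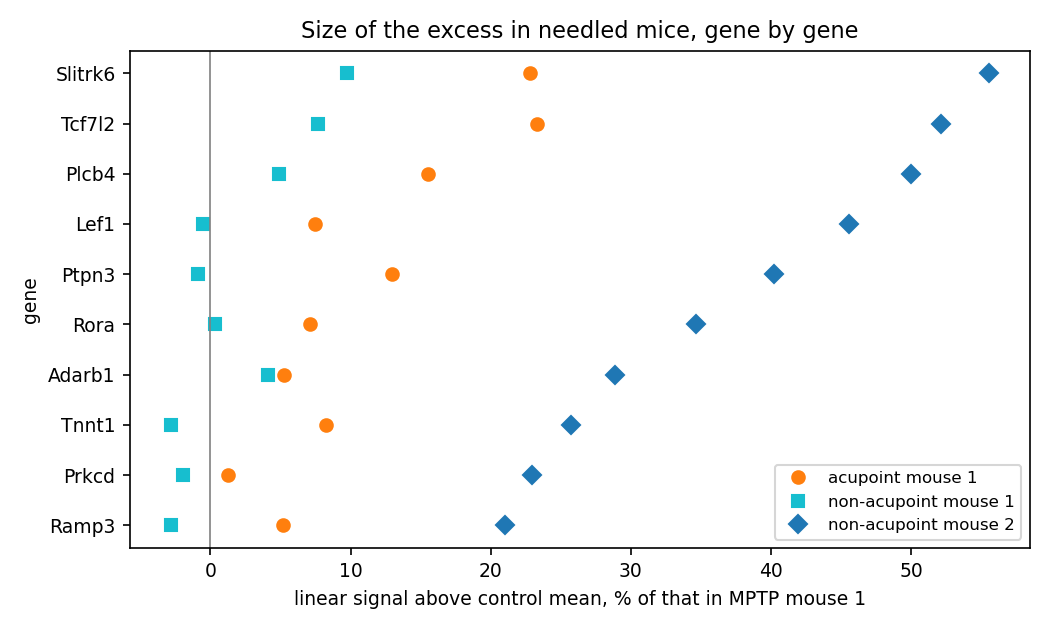
Excess over the control mean on the linear scale, as a percentage of the excess in MPTP mouse 1 (horizontal axis), for each of the 10 thalamus-enriched genes (rows). Circles are acupoint mouse 1, squares non-acupoint mouse 1 and diamonds non-acupoint mouse 2. Slitrk6 (55.5%), Tcf7l2 (52.1%) and Plcb4 (50.0%) have the highest shares in non-acupoint mouse 2 and Ramp3 (21.0%) the lowest.

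MPTP against control asks how the toxin changed the striatum. As the mean over the 10 genes, the MPTP mice averaged 1.02 ± 2.17 and the control mice 0.00 ± 0.03 log2 units relative to the control mean (SD, n = 2 each). The difference was above 0 for all 10 genes, with values of 0.38 (Prkcd) to 1.41 (Slitrk6) and standard errors of 0.55 to 1.25 from the model across all probe sets. The MPTP values lay on both sides of the controls for 9 genes and around part of them for Adarb1, so 0 of 10 genes had non-overlapping groups, where 17.3% of all tested probe sets were higher in both MPTP mice and 12.1% lower in both. limma called 0 of the 16342 probe sets (0.0%), and before adjustment p was under 0.05 for 652. Without MPTP mouse 1 the mean difference was -0.51, with 9 of 10 genes below 0. Without MPTP mouse 2 it was 2.55, and limma then called 1607 probe sets, a count that rests on 1 MPTP array assumed to vary like the mice of the other groups.

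Acupoint against MPTP asks what needling at the acupoints did to mice given the toxin. The acupoint mice averaged 0.26 ± 0.52 and the MPTP mice 1.02 ± 2.17 (SD, n = 2 each), a mean difference of -0.76 log2 units that was below 0 for all 10 genes, with values of -1.14 (Ramp3) to -0.43 (Tcf7l2). No gene had non-overlapping groups (0 of 10), where 8.41% of all probe sets were higher and 18.9% lower in both acupoint mice. limma called 0 probe sets (0.0%), and before adjustment p was under 0.05 for 588. The direction rested on MPTP mouse 1: without it all 10 genes were higher in the acupoint mice, with a mean difference of 0.77. Without MPTP mouse 2 the mean difference was -2.30, and limma called 1453 probe sets on the 1 MPTP array left.

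Non-acupoint mice averaged 0.79 ± 0.98 and MPTP mice 1.02 ± 2.17 (SD, n = 2 each), with differences of -0.68 to 0.19 and 4 of 10 genes above 0. Again 0 of 10 genes had non-overlapping groups, where 15.4% of all probe sets were higher and 17.7% lower in both non-acupoint mice. limma called 0 probe sets (0.0%), and before adjustment p was under 0.05 for 1076. Without MPTP mouse 1 the mean difference was 1.31 and without MPTP mouse 2 it was -1.76, and limma then called 794 probe sets on the 1 MPTP array left.

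Acupoint against non-acupoint asks whether the site of needling mattered. The mean difference was -0.54 log2 units, with values of -0.77 to -0.34 and all 10 genes below 0. The groups overlapped for all 10 genes, where 13.9% of all probe sets were higher and 24.6% lower in both acupoint mice. limma called 0 probe sets (0.0%), and before adjustment p was under 0.05 for 526. Without non-acupoint mouse 2, 8 of the 10 genes were higher in the acupoint mice and the mean difference was 0.15.

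Set against the controls, 4 genes had non-overlapping groups in each needled group. Slitrk6, Adarb1, Tcf7l2 and Rora were higher in both acupoint mice, where 12.7% of all probe sets were higher and 21.2% lower. Slitrk6, Plcb4, Adarb1 and Tcf7l2 were higher in both non-acupoint mice, where 26.9% of all probe sets were higher and 22.6% lower. Both comparisons use the same 2 control mice, whose values for the set lay close together. The mean difference was 0.26 for acupoint mice and 0.79 for non-acupoint mice, and without non-acupoint mouse 2 the non-acupoint difference was 0.10, with 5 of 10 genes above 0. Without acupoint mouse 1 the acupoint difference was -0.11, with 4 of 10 genes above 0. limma called 0 probe sets in either comparison (0.0%), and before adjustment p was under 0.05 for 312 (acupoint) and 988 (non-acupoint).

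The SD of the 10-gene mean between mice of 1 group, pooled over the 4 groups, was 1.22 log2 units. That is larger than the mean difference in each of these comparisons. The SD was largest in the MPTP mice (2.17), against 0.98 in the non-acupoint, 0.52 in the acupoint and 0.03 in the control mice. The pooled value thus overstates the spread in the comparisons without the MPTP group. The median difference over all tested probe sets was between -0.04 and 0.02 log2 units in the 6 comparisons.

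Most other thalamic genes on the list had the same 2 highest arrays. Of 18 further genes known from the thalamus, 17 had a tested probe set, and MPTP mouse 1 was the highest array and non-acupoint mouse 2 the second for 14 of them (82.4%), an order found in 11.4% of all 14890 genes. With acupoint mouse 1 next, as in the set, the order held for 11 of the 17 (64.7%) and for 3.05% of all genes. The list was chosen with earlier results of these data known, so these shares are a description and no separate check on the set. The median of the 17 genes, as log2 value minus the control mean, was 0.47 and 0.08 in the acupoint mice, 0.22 and 1.44 in the non-acupoint mice, and 1.93 and -0.09 in the MPTP mice. Slc17a6, the vesicular glutamate transporter that marks relay neurons, had log2 values of 10.96 and 9.08 in the acupoint mice, 10.27 and 11.60 in the non-acupoint mice, 12.12 and 8.03 in the MPTP mice, and 9.34 and 9.33 in the control mice. It repeated the order of the set down to MPTP mouse 2 as the lowest array. Calb2, the calcium-binding protein calretinin, instead peaked in non-acupoint mouse 2 at 10.35, against 10.12 in MPTP mouse 1 and 8.75 and 8.81 in the controls. Nexn, an actin-binding protein, was at 8.93 in MPTP mouse 1, against 8.99 and 9.21 in the controls, and Lhx2, chosen after its values were seen, was at 7.01 there, against 7.95 and 8.02. So the list was not uniform. 0 of its 17 genes passed the adjusted test in any comparison.

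Markers of the neighbouring nuclei moved less evenly. For the reticular thalamus, 3 of 4 genes were tested, and their median was -0.15 in non-acupoint mouse 2 and -0.24 in MPTP mouse 1. Pvalb, the calcium-binding protein parvalbumin, was at 9.96 in non-acupoint mouse 2 and 10.60 in MPTP mouse 1, against 8.60 and 8.48 in the controls, while the peptidase-related gene Ecel1 was at 7.69 in MPTP mouse 1, against 8.82 and 8.80. For the habenula, 6 of 8 genes were tested, and their median was 0.72 in non-acupoint mouse 2 but 0.11 in MPTP mouse 1. Tac2, which encodes the neurokinin B precursor of the medial habenula, was highest in non-acupoint mouse 2 at 7.88 and lowest in MPTP mouse 1 at 6.37, against 6.91 and 6.74 in the controls. The other 5 habenula genes were above the control mean in MPTP mouse 1, by up to 1.15 log2 units for Gpr151, chosen after its values were seen. For the hypothalamus, 9 of 10 genes were tested, with a median of 0.34 in non-acupoint mouse 2 and 0.23 in MPTP mouse 1. Hcrt, the orexin precursor, was at 6.63 in non-acupoint mouse 2 and 8.88 in MPTP mouse 1, against 5.90 and 5.65 in the controls. The other genes with the highest means on that list moved less in MPTP mouse 1. Relative to the control mean, Oxt was at -0.69, Otp at 0.07 and Trh at 0.47 log2 units there.

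Striatal projection neuron genes ran opposite to the set. This list, too, was chosen with earlier results of these data known. All 13 tested of 15 had MPTP mouse 1 as the lowest array, against 21.6% of all genes, and their median log2 value minus the control mean was -0.17 and 0.22 in the acupoint mice, -0.10 and -0.66 in the non-acupoint mice, and -2.00 and 0.37 in the MPTP mice. Ppp1r1b, which encodes the dopamine-regulated phosphatase inhibitor DARPP-32, had log2 values of 11.21 and 11.55 in the acupoint mice, 11.14 and 10.65 in the non-acupoint mice, 8.97 and 11.65 in the MPTP mice, and 11.42 and 11.32 in the control mice. MPTP mouse 1 and non-acupoint mouse 2, the highest arrays for the thalamus-enriched genes, were thus below both controls for all 13, and MPTP mouse 2, the lowest array for 8 genes of the set, was above both controls for all 13.

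Choroid plexus genes had another order of arrays. The median of the 11 tested of 12 genes was 1.77 and 0.08 in the acupoint mice, 1.72 and 2.41 in the non-acupoint mice, and 1.76 and -0.30 in the MPTP mice. Ttr, the transthyretin gene of the choroid plexus epithelium, had log2 values of 13.42 and 9.98 in the acupoint mice, 13.20 and 13.49 in the non-acupoint mice, 13.39 and 8.12 in the MPTP mice, and 8.63 and 8.88 in the control mice. Non-acupoint mouse 1, high in choroid plexus genes, was at 0.10 for the mean of the thalamus-enriched set.

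Septal genes (6 tested of 6) had medians of 0.17 in non-acupoint mouse 2, -0.49 in MPTP mouse 1 and -0.91 in MPTP mouse 2. In non-acupoint mouse 2 and MPTP mouse 1, the medians were -0.33 and -0.10 for globus pallidus (4 genes), -0.50 and -0.54 for cortical excitatory neurons (6 genes), 0.10 and 0.31 for myelin (7 genes) and 0.12 and 0.07 for endothelium (7 genes). Over all 131 genes of the 13 lists, limma called 0 in each of the 6 comparisons, with a smallest adjusted p of 0.342. The part that any of these tissues plays in the differences between groups was not tested.

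**Figure D4:**
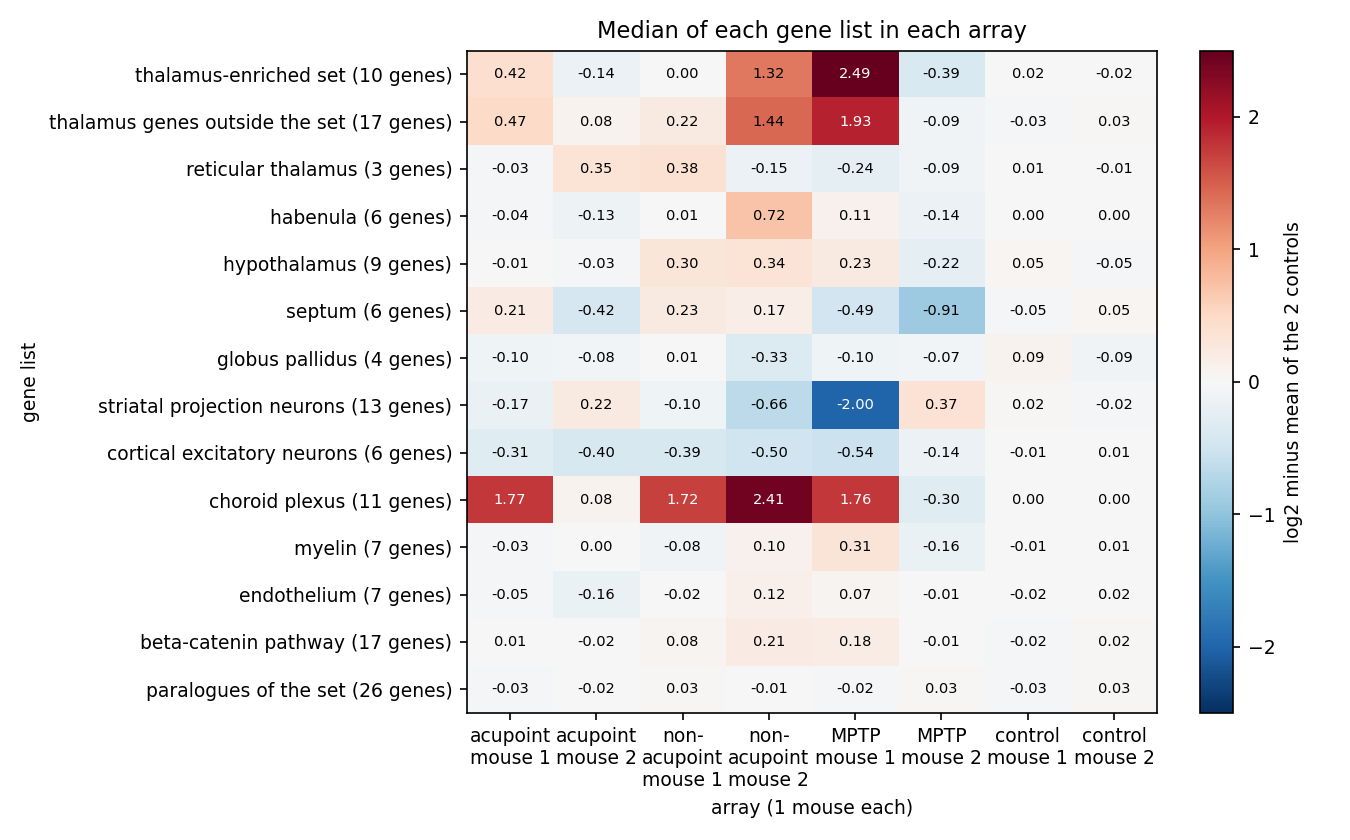
Median log2 value minus the mean of the 2 control arrays (colour and number) for each gene list (rows) on each array (columns). The thalamus genes outside the set are high in the same arrays as the set (1.93 in MPTP mouse 1, 1.44 in non-acupoint mouse 2), striatal projection neuron genes are low there (-2.00 and -0.66), and choroid plexus genes are also high in acupoint mouse 1 (1.77) and non-acupoint mouse 1 (1.72).

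Genes that share a family or pathway with the set did not move with it as a group. The median over 26 measured paralogues of 29 was between -0.03 and 0.03 on every treated array. Ptpn4, the closest relative of Ptpn3, had log2 values of 9.90 and 9.56 in the acupoint mice, 9.32 and 10.48 in the non-acupoint mice, 11.23 and 9.20 in the MPTP mice, and 9.24 and 9.47 in the control mice, the same 3 highest arrays as the set. Adarb2 was at 6.95 in non-acupoint mouse 2 and 8.08 in MPTP mouse 1, against 6.16 and 6.46 in the controls, and Rorb was at 9.23 and 9.43 on those arrays, against 8.47 in both controls. Relatives of the signalling genes were mixed. In MPTP mouse 1, Plcb1 was at 8.99, against 10.43 and 10.61 in the controls, Prkca was at 7.35, against 8.66 and 8.72, and Prkcb was at 10.42, against 11.49 and 11.57. Ramp2 and Prkcq were 0.51 and 0.29 log2 units above the control mean on that array, and Plcb2, Prkch, Prkcz and Calcrl were within 0.05 log2 units of it. Among the relatives of Slitrk6, the value relative to the control mean in MPTP mouse 1 was -0.75 for Slitrk4, -0.51 for Slitrk5, -0.45 for Slitrk2, -0.03 for Slitrk1 and 0.26 for Slitrk3.

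In the beta-catenin pathway, through which Tcf7l2 and Lef1 act, 17 of 18 genes were tested, with a median of 0.21 in non-acupoint mouse 2 and 0.18 in MPTP mouse 1. Ctnnb1, beta-catenin itself, had log2 values of 10.95 and 10.89 in the acupoint mice, 11.03 and 11.11 in the non-acupoint mice, 11.28 and 10.89 in the MPTP mice, and 10.91 and 10.96 in the control mice. Dkk3, a member of the Dickkopf family, was at 8.18 in non-acupoint mouse 2 and 7.18 in MPTP mouse 1, against 8.97 and 9.01 in the controls. The pathway thus held a wide range of differences around a median near 0.2.

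The genes whose profiles over the 8 arrays were most like the mean of the set were found by the root mean square difference of log2 deviations, over 14181 genes whose median difference was 0.95 log2 units. The nearest was Kcnc2, a voltage-gated potassium channel subunit, at 0.07 log2 units from the mean of all 10 genes. Each of the 10 genes lay 0.21 to 0.47 from the mean of the other 9. Those distances are not comparable with that of Kcnc2, which was picked as the smallest over 14181 genes. Kcnc2 had log2 values of 9.14 and 8.32 in the acupoint mice, 8.58 and 9.97 in the non-acupoint mice, 10.86 and 7.99 in the MPTP mice, and 8.45 and 8.53 in the control mice. Next came Mctp2 (0.14), Cpne9 (0.16), Plekhg1 (0.20), Ntng1 (0.20), Rgs16 (0.21), Zdhhc22 (0.22), Shisal1 (0.23), Sptssb (0.24) and Vav3 (0.24). Of these 10, Plekhg1, Ntng1, Rgs16 and Vav3 are on the list of further thalamus genes, and Ntng1 encodes netrin-G1, a membrane-anchored protein of thalamic axons. That list was chosen with earlier results of these data known, so the shared genes are no separate check. Mctp2 (4.71 and 5.01) and Sptssb (5.15 and 5.22) were below the filter's floor of 5.25 in both controls. These 2 genes passed the filter only through the arrays where they were higher. The genes nearest to the mirrored profile were Gpr6 (0.15), Serpina9 (0.24), Rxrg (0.26), Gpx6 (0.28) and Crym (0.29). Gpr6, an orphan receptor of striatal projection neurons, had log2 values of 9.71 and 10.36 in the acupoint mice, 9.80 and 8.92 in the non-acupoint mice, 7.65 and 10.58 in the MPTP mice, and 10.20 and 10.12 in the control mice. Its lowest arrays were MPTP mouse 1 and non-acupoint mouse 2, the highest for the set. With MPTP mouse 1 left out, 5 of the 10 nearest genes were shared with the list above.

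**Figure D5:**
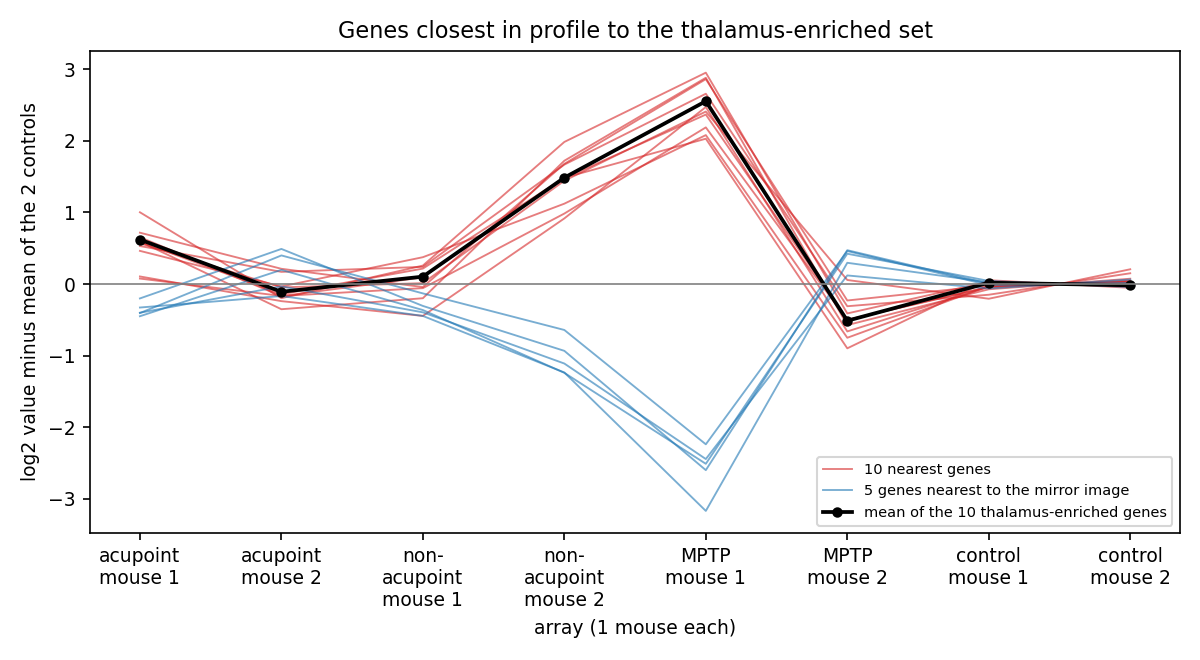
Log2 value minus the mean of the 2 control arrays (vertical axis) on each array (horizontal axis) for the 10 genes nearest to the mean profile of the thalamus-enriched set (red lines), the 5 nearest to its mirror image (blue lines) and the mean of the set (black line); lines join the arrays only to guide the eye. Kcnc2 lies 0.07 log2 units (root mean square) from the mean of the set and Gpr6 0.15 from its mirror image.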

How the data were processed

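Striatal RNA of 8 mice was measured on Affymetrix mouse gene arrays. The deposited table holds 1 log2 value per probe set and array, which the authors made with Affymetrix Expression Console and RMA, per the submitters' processing notes, with no version given. RMA corrects background, quantile-normalises the arrays and summarises probes on a log2 scale, so a shift of most genes in 1 direction could not be seen. No scanner files were used here, and array medians lay between 6.02 and 6.12. The arrays' build is not given in the sources used here.

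The platform table named 1 gene for 21789 probe sets, several for 1621 and none for 12147. Tests used the 16342 probe sets with 1 gene and a mean of at least 5.25, the 25th percentile. Groups were compared in 1 linear model over the 8 arrays (limma 3.58.1 under R 4.3.3, functions lmFit then eBayes, 4 residual and 2.94 prior degrees of freedom), with Benjamini-Hochberg adjustment at 0.05 over all 16342. An exact permutation test of 2 against 2 cannot go below 0.333 and was not used. Motifs were searched in RefSeq promoter windows with Python 3.11.15. With 2 mice a group the number of arrays limits the precision.

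The members, the 13 companion lists and the tests were chosen with earlier results of these data known. Named genes were the members, their paralogues, up to 4 genes per list with the highest means, the 10 genes nearest to the mean profile and the 5 nearest to its mirror image. Others are said to be chosen after their values were seen. Alternatives were other filters, annotation, shrinkage options, array weights, normalisation, 2-group fits, a block on the mouse number and leaving out each array.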

Additional observations from a re-analysis of the deposited data

How the results depend on the processing

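With 2 mice a group and RMA values without scanner files, signal over background could not be set probe by probe, and 1 array can decide a group's mean. Leaving out each mouse in turn, limma called 0 to 1607 probe sets for MPTP against control, 0 to 1453 for acupoint against MPTP and 0 to 794 for non-acupoint against MPTP, in each case with the highest count when MPTP mouse 2 was left out, and 0 in the other 3 comparisons. A group left with 1 mouse is assumed there to vary like the other groups. Fitted on the 2 groups alone, limma called 1 probe set for acupoint against control and 2 for non-acupoint against control, and 0 in the other 4 comparisons. Under the other filters, annotation, shrinkage, weights and normalisation it called 0 in all 6. The mean difference of the 10 thalamus-enriched genes ranged, leaving out each mouse of the 2 groups in turn, between -0.51 and 2.55 for MPTP against control, between -2.30 and 0.77 for acupoint against MPTP and between -1.76 and 1.31 for non-acupoint against MPTP. It ranged between -1.23 and 0.15 for acupoint against non-acupoint, between -0.11 and 0.62 for acupoint against control and between 0.10 and 1.49 for non-acupoint against control. Under the other summaries and normalisations, the 10-gene level of MPTP mouse 1 lay between 2.49 and 2.72, that of non-acupoint mouse 2 between 1.32 and 1.61 and that of MPTP mouse 2 between -0.71 and -0.39. That of acupoint mouse 1 lay between 0.42 and 0.75, that of acupoint mouse 2 between -0.16 and -0.06, and that of non-acupoint mouse 1 between -0.0033 and 0.13, so its sign depended on the summary.

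With the mouse number as a replicate block, limma called 0 probe sets in each of the 6 comparisons. The main fit also called 0, so the block could not have lowered the count. Before adjustment, p in limma was under 0.05 for 525 probe sets in MPTP against control with the block, against 652 without it. The differences of mouse 1 minus mouse 2 correlated between -0.492 and 0.402 over the 6 pairs of groups. These values do not settle whether mice with the same number were handled together.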

Other observations

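Pmch, which encodes the melanin-concentrating hormone precursor of the lateral hypothalamus, was chosen after its values were seen, from the hypothalamus list. It had log2 values of 4.66 and 6.16 in the acupoint mice, 4.73 and 8.27 in the non-acupoint mice, 8.89 and 4.11 in the MPTP mice, and 4.48 and 4.39 in the control mice. Pmch was thus below the filter's floor of 5.25 in both controls and passed the filter only through the arrays where it was high. MPTP mouse 1 and non-acupoint mouse 2, the highest arrays for the thalamus-enriched genes, were also its highest, and acupoint mouse 2 came next, where the thalamus-enriched genes had acupoint mouse 1. Oxt, the oxytocin precursor, was at 9.23 in non-acupoint mouse 1, against 7.81 and 7.76 in the controls, and at 7.10 in MPTP mouse 1. Zic1, a transcription factor gene of the septum list, was at 10.16 in non-acupoint mouse 2, 10.04 in MPTP mouse 1 and 8.00 in MPTP mouse 2, against 9.19 and 9.40 in the controls, whereas the septal channel gene Trpc4 was at -2.25 log2 units in MPTP mouse 1 and -0.74 in MPTP mouse 2, relative to the mean of the 2 controls. These values were not tested against each other.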
